A study of Saccharomyces cerevisiae with 42 samples.

Results

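The translation factors described here are 37 yeast genes whose products start, extend and end protein synthesis. They are a list of gene names from the initiation, elongation and termination machinery, not all of it: the genes of eEF1A (TEF1 and TEF2), eEF2 (EFT1 and EFT2) and the helicase gene DED1 are outside the list. Where a gene had several probe sets, the brightest by its mean over the 42 arrays stood for it. TIF1 and TIF2 lie on 1 shared probe set, so the 37 genes gave 36 measured features out of 5859 tested. None of the 36 features was removed for low signal.

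The arrays hold total RNA of Saccharomyces cerevisiae from log-phase cultures in YPD, a rich medium, sampled unheated and every 5 min for 30 min of heat at 39 C. One strain lacks DPL1 (dpl1:KanMX), the gene of the sphingosine-phosphate lyase. Another lacks both sphingosine kinase genes (lcb4::KanMX lcb5::KanMX). The parental strain is labelled JK939a and carries no KanMX deletion. All 3 strains share one background, with mating type α and HMLa, leu2-3 112, ura3-52, trp1, his4 and rme1, and the 21 groups by strain and time hold 2 arrays apiece. The labels do not say whether the 2 arrays came from separate cultures, so p-values measure the spread between these arrays, which may be technical. No strain has an unheated array at a later time, so heat and time in culture cannot be told apart.

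Translation starts when the cap-binding complex eIF4F, made of the cap-binding protein eIF4E, the scaffold eIF4G and the helicase eIF4A, brings an mRNA to the small ribosomal subunit. That subunit already carries eIF3 and the initiator tRNA bound to eIF2 and GTP. The exchange factor eIF2B reloads eIF2 with GTP for each new round, elongation factors then deliver tRNAs and move the ribosome, and release factors end the chain at a stop codon. In yeast, transcripts of this machinery are known to fall together with those of ribosomal proteins when cells meet stress.

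Values are log2 signals after RMA, a procedure that brings the arrays to nearly the same distribution of signals. Each change is thus relative to the other transcripts on the array. A general fall in RNA would not appear, and fewer cells and less RNA per cell cannot be told apart. A change of -1 means that the signal fell to 50% of its level before heat. A feature was called changed at an adjusted p under 0.05 in limma, with Benjamini-Hochberg adjustment over all 5859 features.

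The array medians lay between 5.61 and 5.80, and replicate arrays correlated across features at 0.942 to 0.981. Replicate 2 arrays differed from replicate 1 arrays in RNA controls. 18S ribosomal RNA read 7.05 ± 2.70 in replicate 2 and 13.1 ± 0.15 in replicate 1 (SD, n = 21 each). 25S ribosomal RNA read 9.82 ± 2.63 in replicate 2 and 13.02 ± 0.27 in replicate 1. The 3' minus 5' signal of SRB4 was 1.97 ± 0.54 in replicate 2 and 0.52 ± 0.27 in replicate 1. In dpl1 replicate 2, 25S ribosomal RNA read 6.07 before heat and 11.1 to 12.8 when heated. In parental replicate 2 it read 6.77 before heat and 7.96 to 12.99 when heated. In lcb4 lcb5 replicate 2 it read 6.89 before heat, with heated arrays on both sides of that value and up to 11.7. The part of this difference in the heat responses was not tested. In the members, a replicate term was called in 14 of 36 features, 6 higher and 8 lower in replicate 2, with a median of -0.01, while of all features 38.2% were higher and 15.2% lower, with a median of 0.11. Replicate 2 of the lcb4 lcb5 deletion at 10 min stands apart, with a 3' minus 5' signal of SRB4 of 3.73, against 2.44 in the next highest array, and the lowest correlation with its replicate. DPL1 read 3.37 ± 0.23 in the dpl1 deletion before heat and 8.83 ± 0.16 in the parental strain (SD, n = 2 each), and LCB4 read 2.70 ± 0.24 in the lcb4 lcb5 deletion and 5.28 ± 0.27 in the parental strain. LCB5 read 3.21 ± 0.39 in the lcb4 lcb5 deletion and 5.25 ± 0.38 in the parental strain. The alpha-cell gene MF(ALPHA)1 read 12.1 to 12.2 in all 3 strains before heat, and 5 a-cell genes had mean signals between 2.73 (STE2) and 5.24 (MFA2). One probe set without a gene name read at least 11.8 in all 28 deletion arrays, at most 4.27 in 13 parental arrays and 8.15 in parental replicate 1 before heat, which stands apart in that probe set.

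Most translation factor transcripts were lower during heat in all 3 strains. Over the 6 heat times, 28 of 36 members fell and 1 rose in the dpl1 deletion, where 26.5% of all features fell and 20.4% rose. In the lcb4 lcb5 deletion 29 fell and 1 rose, against 25.1% and 18.9% of all features, and in the parental strain 27 fell and 1 rose, against 24.5% and 21.6%. The median member changed by -1.40 in the dpl1 deletion, -1.11 in the lcb4 lcb5 deletion and -1.35 in the parental strain, while the median of all features was -0.04, -0.02 and -0.01. The same 27 members were called lower in all 3 strains, SUP35 in both deletion strains and HYP2 in the lcb4 lcb5 deletion, with no difference in response between strains called. Without parental replicate 1 before heat, 27 members fell and 2 rose in the parental strain, with a median of -1.41.

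Averaged over the strains, 30 members fell and 1 rose (35.1% and 30.6% of all features). The fall took 25 of the 36 members below 50% of their level before heat, as it did 14.5% of all features. The member that rose was HEF3. The 5 members that passed the test in neither direction were TIF4632, EAP1, HCR1, CAM1 and HYP2, with changes between -0.18 and 0.18. All 12 heated arrays lay below both arrays before heat for 19 members in the dpl1 deletion, 22 in the lcb4 lcb5 deletion and 13 in the parental strain, and for 21.3%, 18.6% and 15.8% of all features.

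**Figure D1:**
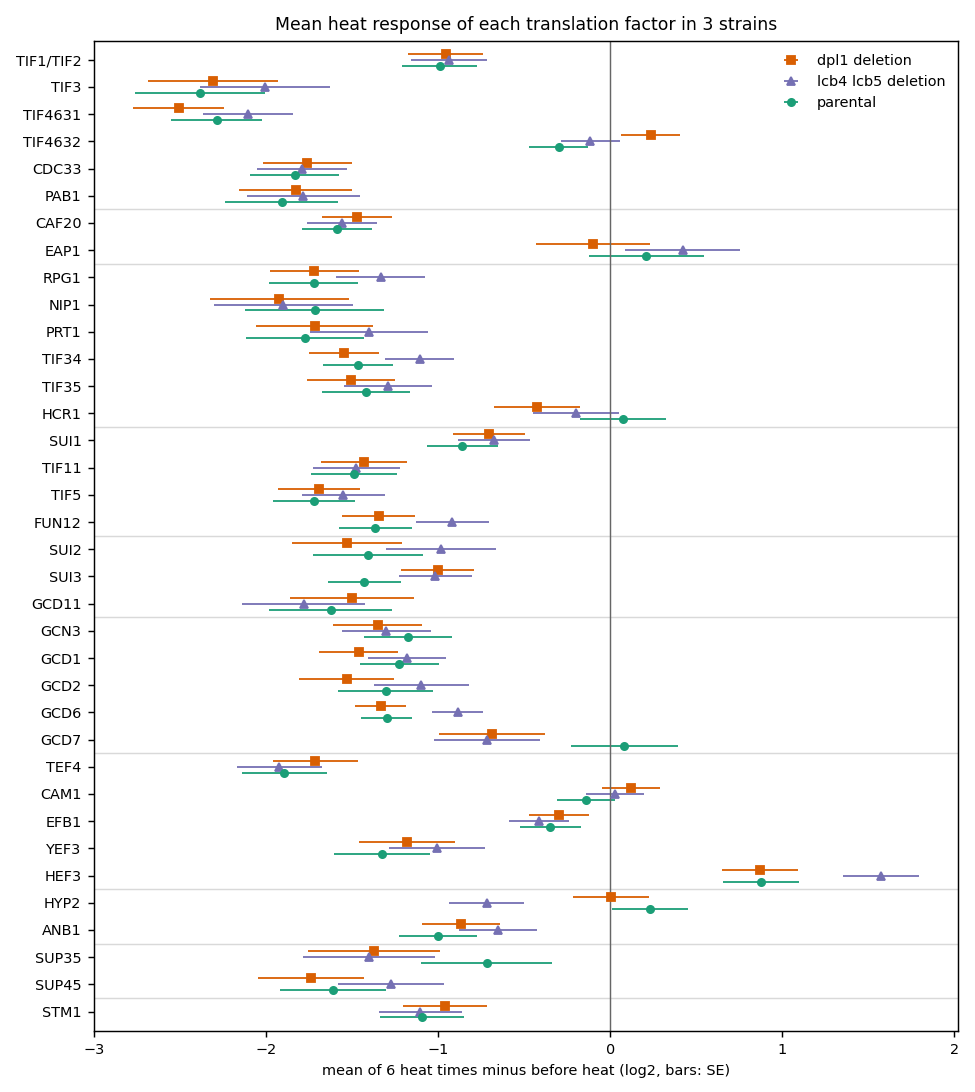
Mean log2 change over 6 heat times from before heat for each of the 36 translation factor features (rows, ordered by role), with squares for the dpl1 deletion, triangles for the lcb4 lcb5 deletion and circles for the parental strain, and bars of 1 SE. Most members lie between -1 and -2.5 in all 3 strains, and HEF3 lies above 0 in all 3.

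The cap-binding complex and its partners held the largest falls. Of the 6 features of eIF4F, eIF4B and the poly(A)-binding protein, 5 fell, with a median of -1.82 averaged over strains. TIF4631 (YGR162W), the main gene of the scaffold eIF4G, read 4.61, 5.80 and 7.99 as the lowest, median and highest of 12 heated dpl1 arrays, against 8.35 and 8.52 before heat. Heated lcb4 lcb5 arrays read 5.07, 6.03 and 7.74, against 8.23 and 8.24 before heat. In the parental strain it read 4.52, 5.63 and 7.94 when heated, against 7.86 and 8.21 before heat.

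The heated arrays thus lay below both arrays before heat in the 2 deletion strains, and in the parental strain 1 heated array, at 5 min, reached into the range before heat. Averaged over strains, TIF4631 fell to 20.3% of its level before heat (log2 change -2.30 ± 0.15, SE; limma adjusted p = 9.25e-13). TIF3, the gene of eIF4B, which aids the helicase, changed by -2.24 ± 0.22 (adjusted p = 1.33e-09). PAB1, the poly(A)-binding protein that joins the mRNA's tail to eIF4G, changed by -1.84 ± 0.19, and CDC33, the cap-binding protein eIF4E, by -1.80 ± 0.15. The probe set shared by TIF1 and TIF2, which both encode the helicase eIF4A, changed by -0.96 ± 0.13 (adjusted p = 2.44e-07).

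TIF4632 (YGL049C), the second eIF4G gene, did not follow TIF4631. It read 5.47, 5.87 and 6.18 in heated dpl1 arrays, against 5.54 and 5.68 before heat, and 5.30, 5.75 and 5.95 in heated lcb4 lcb5 arrays, against 5.77 and 5.88. In the parental strain it read 5.41, 5.60 and 6.06 when heated, against 5.81 and 6.18 before heat. The ranges overlapped in every strain, and the change averaged over strains was -0.06 ± 0.10 (limma adjusted p = 0.606). With cyclic loess it was called higher in the dpl1 deletion (0.42, adjusted p = 0.0265). The signal of TIF4632 was low, with a mean of 5.76 over all arrays (percentile 34.6 of all features). How far it lies above background, and so whether its probe set could show a fall, was not tested.

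Of the 2 repressors that compete with eIF4G for eIF4E, 1 fell. CAF20 (YOR276W) read 7.60, 8.12 and 10.0 as the lowest, median and highest of 36 heated arrays, against 9.60, 9.95 and 10.2 over the 6 arrays before heat. It fell in each strain, with changes of -1.47 in the dpl1 deletion, -1.56 in the lcb4 lcb5 deletion and -1.59 in the parental strain, and averaged -1.54 ± 0.12 (adjusted p = 1.41e-11). EAP1, the other repressor, averaged 0.18 ± 0.19 (adjusted p = 0.428).

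Of the 6 subunits of eIF3, the complex that holds the small subunit ready for the mRNA, 5 fell, with a median of -1.50. NIP1 (YMR309C), the c subunit, read 3.31, 5.82 and 6.82 in the 36 heated arrays, against 7.15, 7.65 and 7.77 in the 6 arrays before heat. No heated array reached the lowest array before heat, and the change averaged -1.85 ± 0.23 (adjusted p = 1.27e-07). PRT1, RPG1, TIF35 and TIF34, the b, a, g and i subunits, changed by -1.63, -1.59, -1.41 and -1.38. HCR1, the loosely bound j subunit, changed by -0.18 ± 0.14 (adjusted p = 0.268). It was called lower in the dpl1 deletion with cyclic loess (-0.47, adjusted p = 0.0318). The same call came with the replicate block within strains (-0.43, adjusted p = 0.0423) or across strains (0.0472).

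All 4 factors of start selection and subunit joining fell, with a median of -1.34. TIF5 (YPR041W), the gene of eIF5, which triggers GTP hydrolysis on eIF2, read 4.96, 5.90 and 7.23 in heated arrays, against 7.19, 7.72 and 7.94 before heat. Its change averaged -1.66 ± 0.14 (adjusted p = 7.63e-11). TIF11, the gene of eIF1A, changed by -1.47, FUN12, the gene of the subunit-joining GTPase eIF5B, by -1.21, and SUI1, the gene of eIF1, by -0.75.

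All 3 subunits of eIF2 fell when averaged over strains, with a median of -1.31. GCD11 (YER025W), the GTP-binding γ subunit, read 7.31, 8.99 and 10.4 in heated arrays, against 10.3, 10.6 and 10.7 before heat, and changed by -1.64 ± 0.21 (adjusted p = 1.30e-07). SUI2, the α subunit that the kinase Gcn2 phosphorylates, changed by -1.31, and SUI3, the β subunit, by -1.15.

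All 5 subunits of eIF2B fell when averaged over strains, with a median of -1.28. GCD2 (YGR083C), the δ subunit, read 4.24, 5.17 and 6.33 in heated arrays, against 6.19, 6.46 and 6.90 before heat, and changed by -1.31 ± 0.16 (adjusted p = 6.40e-08). GCD1, the γ subunit, GCN3, the α subunit, and GCD6, the catalytic ε subunit, changed by -1.29, -1.28 and -1.18. GCD7, the β subunit, passed the test in the average and in no single strain (-0.44 ± 0.18, adjusted p = 0.0325), with changes of -0.69 in the dpl1 deletion, -0.72 in the lcb4 lcb5 deletion and 0.08 in the parental strain. Its parental value rests on 1 array: before heat, replicate 2 read 6.76 and replicate 1 read 8.13, and without replicate 2 the parental change was -0.60. The averaged call was lost without any 1 of 4 other arrays before heat: dpl1 replicate 2 (adjusted p = 0.11), lcb4 lcb5 replicate 1 (0.0575) or 2 (0.0799), or parental replicate 1 (0.318), and with hybridisation-control centring (0.692). Median centring lost the averaged call as well (-0.40, adjusted p = 0.068). With the replicate block within strains GCD7 was called lower in the dpl1 deletion (adjusted p = 0.0296) and the lcb4 lcb5 deletion (0.0254), and with array weights in the lcb4 lcb5 deletion (0.0185).

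Averaged over strains and the 6 heat times, 3 of the 5 elongation members fell, 1 rose and CAM1 passed in neither direction. Their median was -0.35. TEF4 (YKL081W), one of a pair of genes for the γ subunit of the eEF1A exchange factor, read 7.66, 8.63 and 10.5 in heated dpl1 arrays, against 10.4 and 10.8 before heat. Heated lcb4 lcb5 arrays read 7.32, 8.47 and 10.1, against 10.7 and 10.4 before heat. In the parental strain it read 7.94, 8.37 and 10.6 when heated, against 10.5 and 10.8 before heat.

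TEF4 fell to 27.8% of its level before heat averaged over strains (-1.85 ± 0.14, adjusted p = 1.70e-11), and a second probe set of the gene gave -2.21. CAM1 (YPL048W), the other gene of the pair, read 8.75, 9.001 and 9.46 in heated dpl1 arrays, against 9.15 and 8.63 before heat. In the lcb4 lcb5 deletion it read 8.47, 8.75 and 9.48 when heated, against 8.69 and 8.88 before heat, and in the parental strain 8.46, 8.98 and 9.24, against 9.10 and 9.06. The heated and unheated ranges overlapped in every strain, and the change averaged 0.001 ± 0.097 (adjusted p = 0.995). EFB1, the catalytic α subunit of the same factor, changed by -0.35 ± 0.10 (adjusted p = 0.00351), and its second probe set gave -0.23. It passed in no single strain (adjusted p = 0.168 in dpl1, 0.0587 in lcb4 lcb5, 0.109 in parental). The averaged call was lost with hybridisation-control centring (-0.11, adjusted p = 0.835). With the replicate block within strains EFB1 was called lower in the lcb4 lcb5 deletion (0.014) and the parental strain (0.0349), and with cyclic loess in the dpl1 deletion (0.0403) and the parental strain (0.0167).

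YEF3 (YLR249W), the main gene of eEF3, a fungal ATPase that clears the exit site of the ribosome, read 10.4, 11.4 and 12.6 in heated dpl1 arrays, against 12.6 and 12.8 before heat. It read 10.6, 11.4 and 12.6 in heated lcb4 lcb5 arrays, against 12.5 and 12.5 before heat, and 9.91, 11.1 and 12.6 in heated parental arrays, against 12.5 and 12.5. The 5 min arrays sat within or near the level before heat, and the change of YEF3 averaged -1.17 ± 0.16 over strains (adjusted p = 5.43e-07). In the lcb4 lcb5 deletion the call (-1.01) was lost without replicate 1 (adjusted p = 0.0545) or 2 (0.0532) before heat.

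HEF3 (YNL014W), the second eEF3 gene, was the one member called higher in every strain. It read 5.61, 6.53 and 6.99 in heated dpl1 arrays, against 5.49 and 5.62 before heat, and 5.17, 6.50 and 6.88 in heated parental arrays, against 5.53 and 5.54. Heated lcb4 lcb5 arrays read 5.98, 7.10 and 7.76, against 5.38 and 5.50 before heat. All heated lcb4 lcb5 arrays lay above the arrays before heat, which 13% of all features did in that strain, and the ranges of the other 2 strains overlapped through the 5 min arrays. HEF3 rose by 0.87 ± 0.22 in the dpl1 deletion, 1.57 ± 0.22 in the lcb4 lcb5 deletion and 0.88 ± 0.22 in the parental strain (adjusted p averaged over strains 2.54e-08). With each array centred on its hybridisation controls, the HEF3 call was kept in the lcb4 lcb5 deletion (adjusted p = 0.0185) and lost in the dpl1 deletion (0.228) and the parental strain (0.191). Without lcb4 lcb5 replicate 2 at 10 min, which held its highest value, HEF3 rose by 1.52 in that strain. Before heat HEF3 averaged 5.51 over the 6 arrays, and how far that lies above background was not tested.

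The 2 genes of eIF5A, a factor that helps the ribosome past slow peptide bonds, are known for opposite control by oxygen: HYP2 is the aerobic form and ANB1 the hypoxic form. ANB1 (YJR047C) read 4.04, 4.99 and 5.93 in heated dpl1 arrays, against 5.44 and 6.21 before heat, and 3.998, 4.33 and 4.98 in heated lcb4 lcb5 arrays, against 5.05 and 5.08. In heated parental arrays it read 4.40, 5.02 and 6.20, against 6.20 and 6.02 before heat. The signal of ANB1 was the lowest of the members, with a mean of 4.94 over all arrays (percentile 21.1 of all features). Before heat the a-cell gene MFA2 averaged 5.03 to 5.24 by strain, and MFA1 up to 4.25. How far ANB1 lies above background was not tested. ANB1 fell in all 3 strains, with an average change of -0.84 ± 0.13 (adjusted p = 3.50e-06). With cyclic loess it was not called in the lcb4 lcb5 deletion (-0.48, adjusted p = 0.0712). The call was lost in the dpl1 deletion without replicate 2 before heat (adjusted p = 0.223), and in the lcb4 lcb5 deletion without replicate 1 (0.115) or 2 (0.14) before heat.

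HYP2 (YEL034W) read 12.2, 12.6 and 12.7 in heated dpl1 arrays, against 12.8 and 12.2 before heat, and 12.2, 12.7 and 12.9 in heated parental arrays, against 12.9 and 11.9. In the lcb4 lcb5 deletion it read 11.02, 12.2 and 12.5 when heated, against 12.7 and 12.8 before heat. It passed the test in the lcb4 lcb5 deletion only (-0.72 ± 0.22, adjusted p = 0.00934), where leaving out replicate 1 before heat gave an adjusted p of 0.0711 and leaving out replicate 2 gave 0.0858. Without replicate 2 at 10 min, which held the lowest value of 11.02, the change was -0.66 (adjusted p = 0.0136). In the parental strain, without replicate 1 before heat, HYP2 was called higher (0.70, adjusted p = 0.0469). The difference between the lcb4 lcb5 deletion and the parental strain in the response of HYP2 was -0.95 (95% interval -1.60 to -0.30) and did not pass over all features (adjusted p = 0.999). Averaged over strains HYP2 changed by -0.16 ± 0.13 (adjusted p = 0.265), or by -0.32 without parental replicate 2 before heat (adjusted p = 0.0374).

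Both release factors fell when averaged over strains, with a median of -1.35. SUP45 (YBR143C), the gene of eRF1, which reads the stop codon, read 7.27, 8.50 and 9.48 in heated arrays, against 9.91, 9.93 and 10.3 before heat. No heated array reached the range before heat, and the change was -1.54 ± 0.18 (adjusted p = 2.64e-08). SUP35, the gene of the GTPase eRF3, changed by -1.17 ± 0.22 (adjusted p = 5.00e-05), with -1.38 in the dpl1 deletion, -1.40 in the lcb4 lcb5 deletion and -0.72 in the parental strain, the last not called. Without replicate 2 before heat the SUP35 call was lost in the dpl1 deletion (adjusted p = 0.0539) and in the lcb4 lcb5 deletion (0.0941). In the parental strain before heat, SUP35 read 7.75 in replicate 2 and 8.52 in replicate 1.

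STM1 (YLR150W), whose product holds idle ribosomes together, read 9.20, 10.2 and 11.4 in heated arrays, against 11.2, 11.4 and 11.5 before heat. Its change averaged -1.05 ± 0.14 over strains (adjusted p = 2.98e-07). The ranges overlapped.

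The members of different steps differed in their time courses, as a description, since roles were not tested against each other. At 5 min, 11 members had fallen in the average of the strains and none had risen (19.1% of all features lower, 14.3% higher), with a median of -0.37. These 11 were TIF4631, CDC33 and PAB1 of the cap-binding group, NIP1 of eIF3, TIF5, the eIF2B subunits GCN3, GCD1, GCD2 and GCD6, and both release factors. None of the 5 elongation members, eIF2 subunits or eIF5A genes was among them. NIP1 had the lowest value at 5 min (-1.24), followed by SUP35 (-0.95), SUP45 (-0.91) and GCD1 (-0.89). Without parental replicate 1 at 5 min, 7 members were called lower at that time.

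By 10 min 28 members had fallen and 1 had risen (31.9% and 24.6% of all features), with a median of -1.39. At each later time 29 fell and 1 rose. Of all features 32.9%, 32.6%, 31.9% and 29% fell and 29.4%, 29.9%, 28.3% and 26.7% rose at 15, 20, 25 and 30 min. The median member was at -1.70, -1.57, -1.41 and -1.14 at those times. EFB1, first called at 20 min, and YEF3, first called at 15 min, were the last members to pass. Of the 30 members whose lowest averaged value was under -0.5, 3 reached it at 10 min, 14 had it at 15 min and 8 had it at 20 min, with 3 more at 25 min and the last 2 at 30 min. The 2 that were lowest at 30 min were EFB1 and ANB1.

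**Figure D2:**
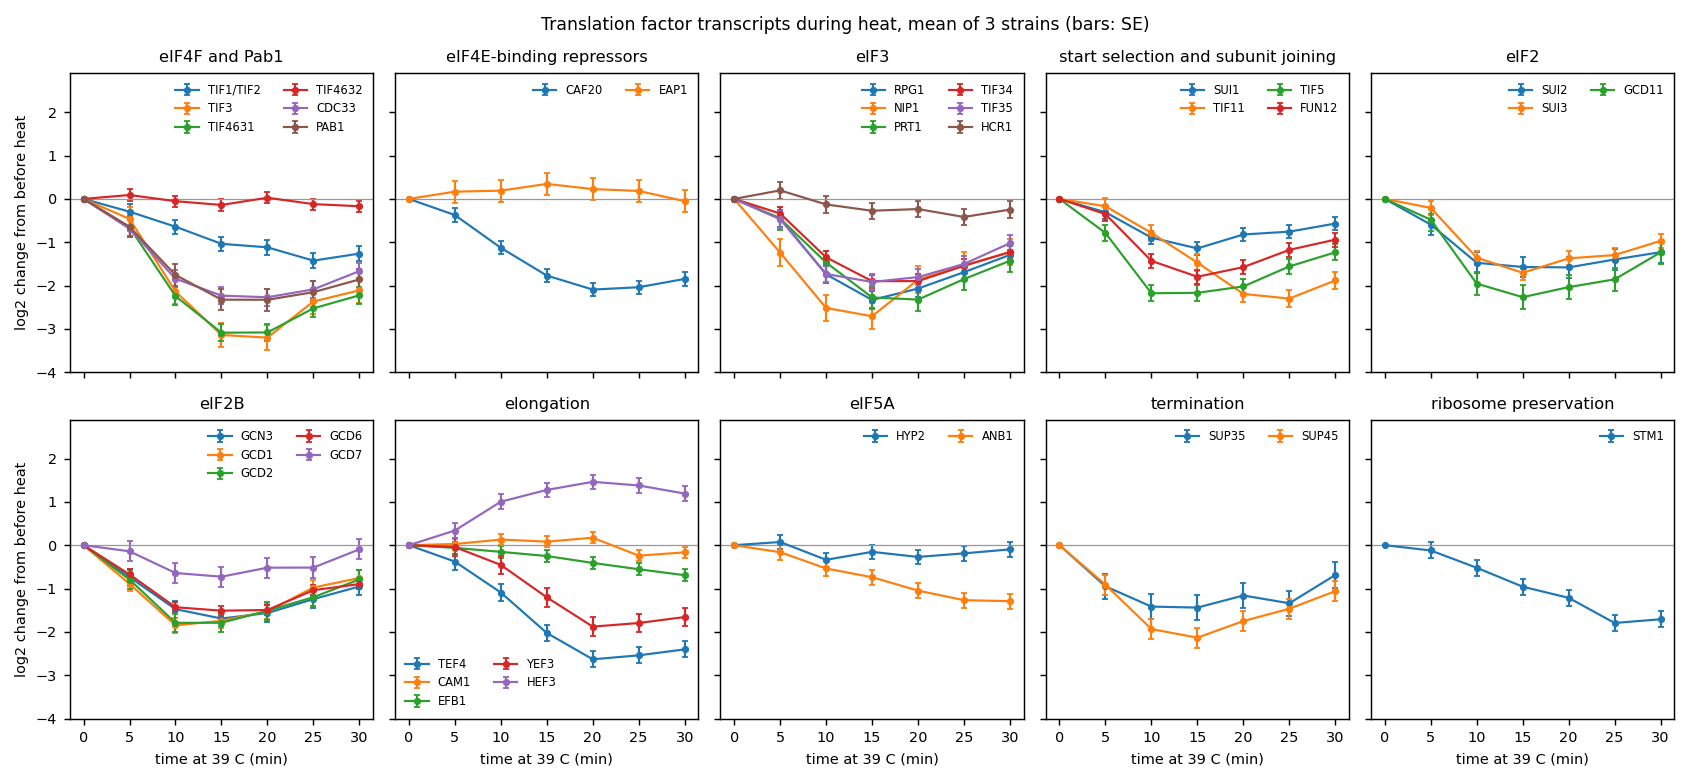
Log2 change from before heat (vertical axis) against time at 39 C in min (horizontal axis) for every member, averaged over the 3 strains, in a panel for each role, with bars of 1 SE. Initiation and release factors are lowest at 10 to 20 min in most cases and then turn up, TEF4 and YEF3 reach their lowest value at 20 min and stay low, and HEF3 lies above 0 from 5 min on.

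The median member moved by -0.76 between 5 and 10 min and by -0.21 between 10 and 15 min, while 7 members, TEF4, YEF3, TIF11 and the TIF1 and TIF2 feature among them, moved more in the later of these steps. Between these times 23 members fell further (14.8% of all features) and HEF3 rose (9.01%). Between 10 and 15 min 5 members fell further (2.25%): TEF4 (-0.93), TIF4631 (-0.85), TIF11 (-0.69), CAF20 (-0.64) and TIF34 (-0.55). That count ran between 1 and 7 when single arrays were left out, and was 1 without parental replicate 1 or lcb4 lcb5 replicate 1 at 10 min. Between 15 and 20, 20 and 25, and 25 and 30 min limma called none of the 36, and 0% of all features. In these steps 6, 9 and 6 members had an unadjusted p under 0.05, as did 219, 636 and 304 of all 5859 features.

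TIF4631 shows the course of the early fallers. In the dpl1 deletion its 2 arrays averaged 8.43, 7.69, 5.92, 5.16, 5.19, 5.74 and 5.86 over the 7 times. The lcb4 lcb5 deletion had averages of 8.24, 7.57, 5.85, 5.29, 5.59, 6.03 and 6.44, and in the parental strain 8.03, 7.47, 6.22, 4.99, 4.68, 5.36 and 5.73. It was lowest at 15 or 20 min in each strain, and higher at 30 min than at its lowest.

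YEF3 shows the later course. Its 2 arrays averaged 12.7, 12.6, 12.3, 11.5, 10.9, 10.8 and 10.9 in the dpl1 deletion at the 7 times, 12.5, 12.5, 11.9, 11.3, 10.9, 11.1 and 11.4 in the lcb4 lcb5 deletion, and 12.5, 12.5, 12.1, 11.3, 10.4, 10.4 and 10.5 in the parental strain. At 5 min YEF3 was at -0.04 from before heat in the average, when TIF4631 was at -0.66, and by 20 min it was at -1.88. The difference between these genes in timing is a description, since it was not tested.

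Late in the series part of the initiation machinery turned up. The mean of 25 and 30 min minus the mean of 15 and 20 min was called higher for 16 members and lower for 4 in the average of the strains, against 11% and 5.26% of all features. With hybridisation-control centring 2 members were called in place of 20. The 16 were TIF3 (0.93 ± 0.20), NIP1 (0.90 ± 0.22), GCD1 (0.77 ± 0.12), TIF4631 (0.71 ± 0.14), RPG1, TIF5, SUP45, PRT1, GCD2, FUN12, GCD11, TIF35, GCD6, GCN3, TIF34 and SUI3. By role they comprised 5 of the 6 eIF3 subunits, 4 of the 5 eIF2B subunits, 2 of the 3 eIF2 subunits, 2 of the 6 features of the cap-binding group, 2 of the 4 factors of start selection and SUP45.

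None of the 5 elongation members and no eIF5A gene was called higher in this late change. Those called lower were CAM1 (-0.33 ± 0.09, adjusted p = 0.0117) and EFB1 (-0.29 ± 0.09, adjusted p = 0.0314), both of the eEF1A exchange factor, ANB1 (-0.39 ± 0.12, adjusted p = 0.0291) and STM1 (-0.67 ± 0.13, adjusted p = 8.94e-04). TEF4 (-0.14), YEF3 (-0.19) and HEF3 (-0.08) passed in neither direction.

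**Figure D3:**
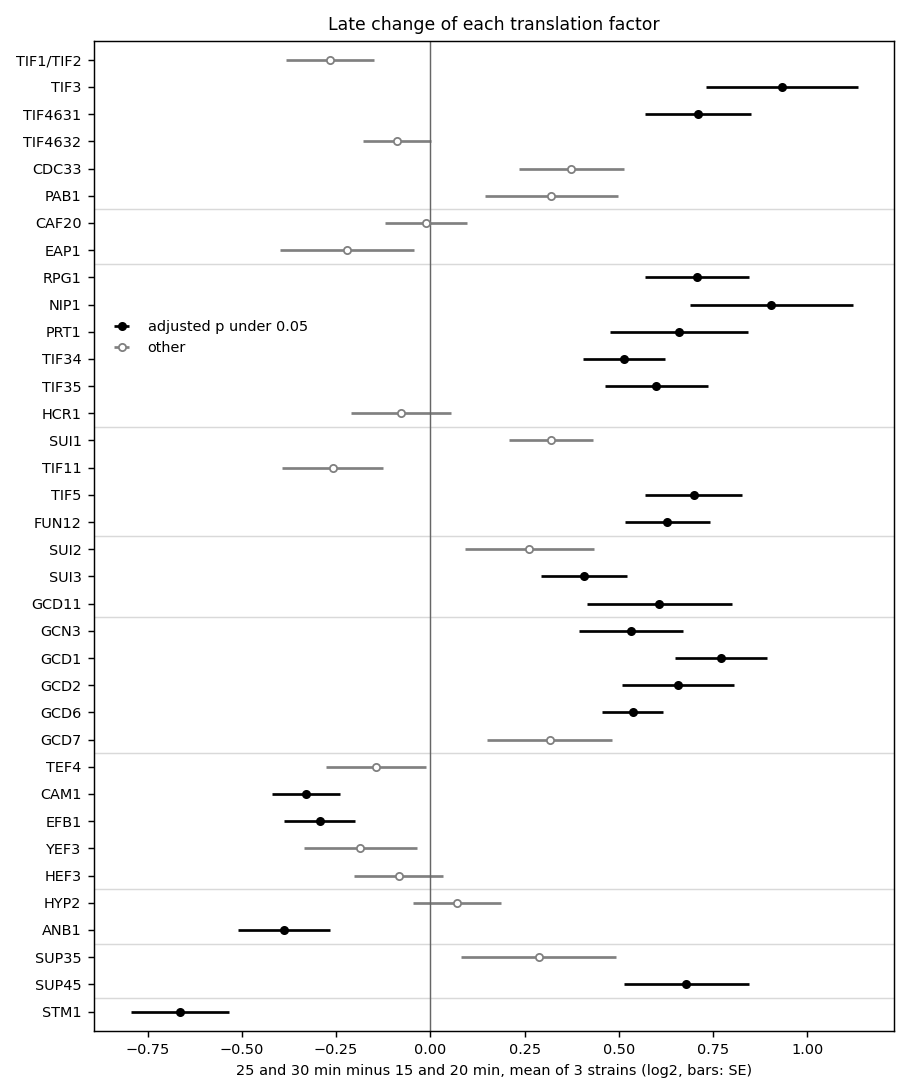
Log2 difference of the mean at 25 and 30 min minus the mean at 15 and 20 min for each member (rows, ordered by role), averaged over the 3 strains, with bars of 1 SE and filled points for an adjusted p under 0.05. Filled points above 0 belong to initiation factors and SUP45, and the 4 filled points below 0 are CAM1, EFB1, ANB1 and STM1.

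Within single strains few late changes passed in the fit without a replicate block. In the dpl1 deletion limma called none of the 36 (0.0683% of all features), with 19 at an unadjusted p under 0.05 (605 of all 5859 features). It called 4 higher in the lcb4 lcb5 deletion (2.56% of all features), namely TIF3, RPG1, GCD1 and GCD6, and in the parental strain 1 (0.324%), GCD6 (0.65 ± 0.14, adjusted p = 0.0351). With the replicate block within strains, 2, 11 and 10 members were called in the dpl1, lcb4 lcb5 and parental strains. Without that block the counts also changed when single arrays were left out. The calls within strains thus depend on the block and on single arrays. The median member stood at -1.23 in the dpl1 deletion, -0.84 in the lcb4 lcb5 deletion and -1.16 in the parental strain at 30 min. At that time 26, 17 and 23 members were called lower in these strains, against 20.8%, 13.6% and 17.9% of all features.

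Isoform pairs gave a measure within each array. For 4 pairs of genes with the same function, the log2 signal of one minus that of the other was compared between the 12 heated arrays and the 2 arrays before heat of a strain, in 12 exact permutation tests, 10 of which passed after Benjamini-Hochberg adjustment. The smallest p that 91 arrangements allow is 0.011. The tests treat the heated arrays of all times alike, and the difference between 2 probe sets carries no meaning as a level, only as a change.

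TIF4632 minus TIF4631 increased by 2.75 in the dpl1 deletion, 1.99 in the lcb4 lcb5 deletion and 1.99 in the parental strain (exact permutation test, adjusted p = 0.0188 each). In the dpl1 deletion the difference averaged -0.08 ± 0.89 in heated arrays (SD, n = 12) and -2.83 ± 0.02 before heat (SD, n = 2). In all 3 strains every heated array lay above both arrays before heat.

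CAM1 minus TEF4 increased by 1.83 in the dpl1 deletion, 1.95 in the lcb4 lcb5 deletion and 1.76 in the parental strain (exact permutation test, adjusted p = 0.0396, 0.0188 and 0.0188). HEF3 minus YEF3 increased by 2.06 in the dpl1 deletion, 2.58 in the lcb4 lcb5 deletion and 2.20 in the parental strain (exact permutation test, adjusted p = 0.0188, 0.0188 and 0.0396). Of the 12 heated arrays of a strain, 10 to 12 lay above both arrays before heat for CAM1 minus TEF4 and 11 to 12 for HEF3 minus YEF3.

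ANB1 minus HYP2 changed by -0.87 in the dpl1 deletion, 0.07 in the lcb4 lcb5 deletion and -1.23 in the parental strain (exact permutation test, adjusted p = 0.12, 0.912 and 0.033). Only the parental change passed, and HYP2 in the parental arrays before heat read 11.9 in replicate 2 and 12.9 in replicate 1. How far probes of one gene of a pair bind RNA of the other was not tested. Nor was it tested how far the low signals of TIF4632, ANB1 and HEF3 before heat limit the change these pairs can show.

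**Figure D4:**
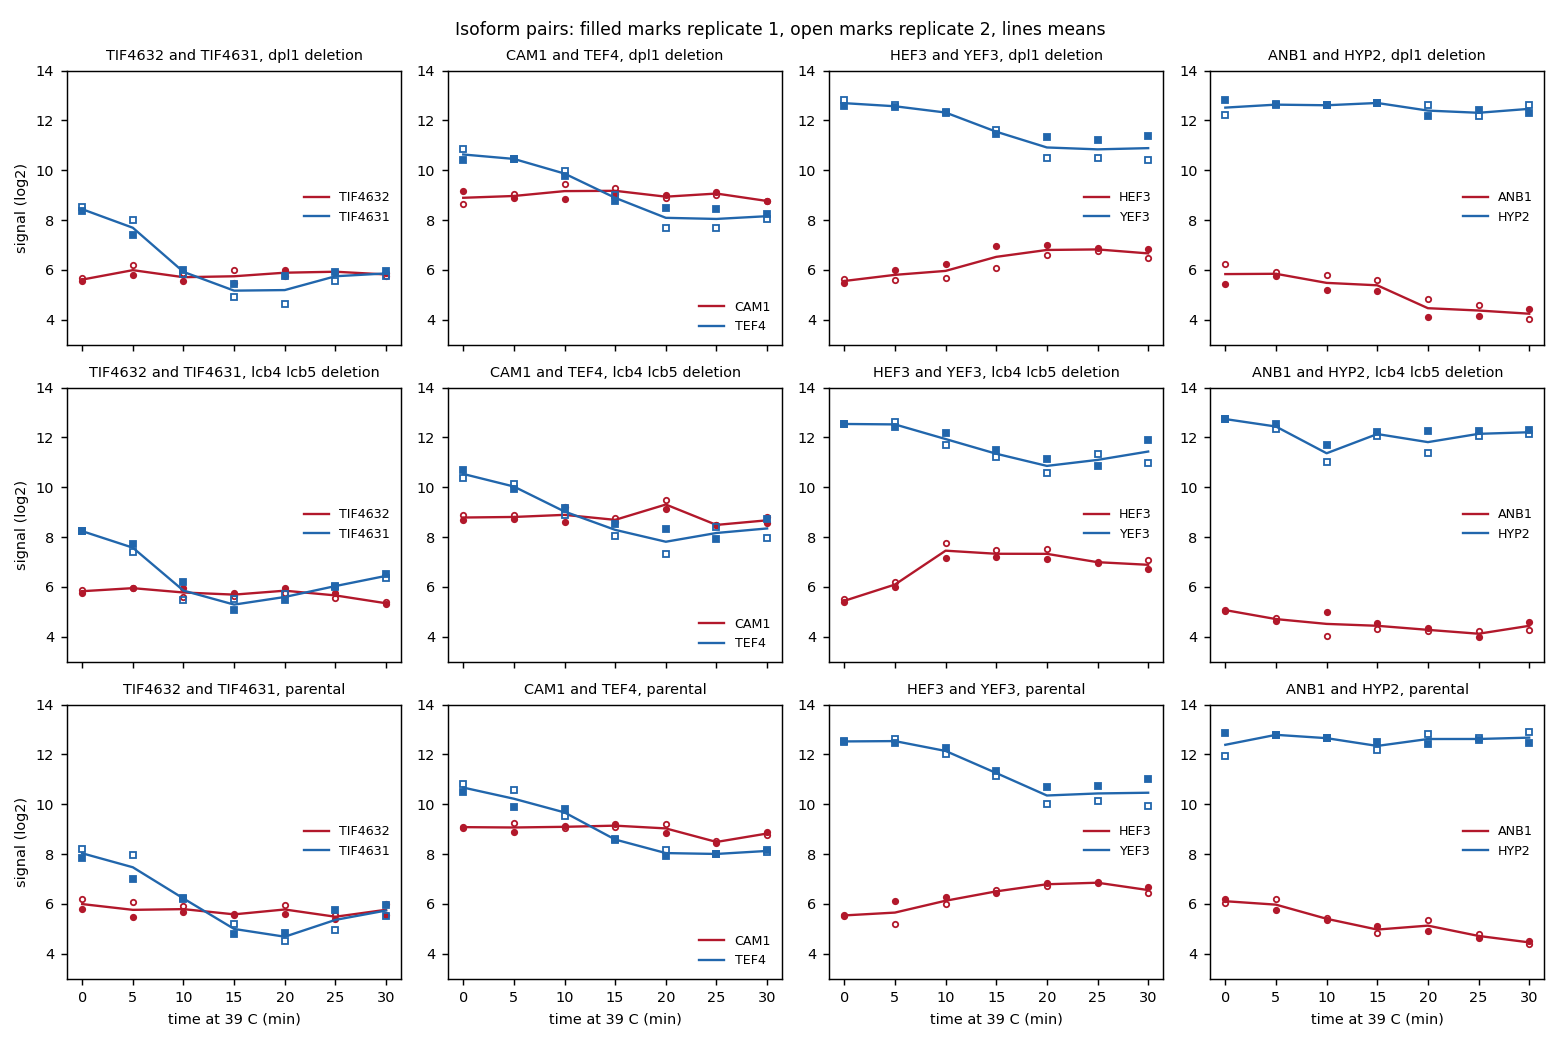
Log2 signal (vertical axis) against time at 39 C in min (horizontal axis) for 4 isoform pairs (columns) in the dpl1 deletion, the lcb4 lcb5 deletion and the parental strain (rows), with filled marks for replicate 1, open marks for replicate 2 and lines through the means. The red line is the first gene of each title and the blue line the second; TIF4631, TEF4 and YEF3 drop while TIF4632 and CAM1 stay near their level before heat and HEF3 climbs.

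Strain comparisons asked whether loss of the lyase or of the kinases moves these transcripts. Between the dpl1 deletion and the parental strain, over all 7 times, limma called none of the 36 members (0.0171% of all features). At an unadjusted p under 0.05 there was 1 member, and 232 of all 5859 features. Before heat limma called none in any of the 3 pairs of strains (0.0171%, 0.102% and 0.137% of all features for dpl1 against parental, lcb4 lcb5 against parental and dpl1 against lcb4 lcb5), with 0, 1 and 1 members at an unadjusted p under 0.05 (134, 261 and 194 of all 5859 features).

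Between the lcb4 lcb5 deletion and the parental strain over all times, 8 of 36 members were called, against 19.1% of all features, so that the share of members called was close to that of the array. With hybridisation-control centring 0 members were called here and 0 between the deletions. GCD6, HEF3, FUN12, GCD2 and RPG1 were higher and ANB1, HYP2 and EFB1 lower in the deletion, as means over unheated and heated arrays. Before heat the difference was 0.09 for GCD6, -0.10 for HEF3, -0.01 for FUN12, 0.28 for GCD2 and 0.04 for RPG1. It was -1.04 for ANB1, 0.35 for HYP2 and -0.28 for EFB1, and none was called at that time. HYP2 thus read higher in the deletion before heat. ANB1 read 3.998, 4.44 and 5.08 as the lowest, median and highest of the 14 lcb4 lcb5 arrays, against 4.40, 5.23 and 6.20 in the parental arrays, a difference of -0.74 ± 0.11 (adjusted p = 1.32e-04). Of the members it has the lowest mean signal, 4.94 over all arrays. GCD6 read 5.75, 6.52 and 7.29 in the deletion, against 5.20, 5.97 and 7.15 in the parental arrays (0.45 ± 0.07, adjusted p = 2.62e-04).

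HEF3 read 5.38, 7.04 and 7.76 in the lcb4 lcb5 deletion, against 5.17, 6.45 and 6.88 in the parental arrays (0.50 ± 0.11, adjusted p = 0.00295). HYP2 read 11.02, 12.2 and 12.8 in the deletion, against 11.9, 12.7 and 12.9 (-0.46 ± 0.11, adjusted p = 0.00475). These ranges overlap, since each spans all 7 times. EFB1 differed by -0.33 ± 0.09 (adjusted p = 0.00971) and FUN12 by 0.37 ± 0.11 (adjusted p = 0.0154).

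Between the dpl1 and the lcb4 lcb5 deletions 6 members were called (12.5% of all features): ANB1 (0.58 ± 0.11), EFB1, HYP2 and CAF20 higher and HEF3 (-0.49 ± 0.11) and GCD6 (-0.31 ± 0.07) lower in the dpl1 deletion. The RNA controls moved with strain as well: the 3' minus 5' signal of SRB4 averaged 0.99 in the dpl1 deletion, 1.51 in the lcb4 lcb5 deletion and 1.22 in the parental strain, and 25S ribosomal RNA averaged 12.2, 10.5 and 11.5. Their part in the strain differences was not tested.

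**Figure D5:**
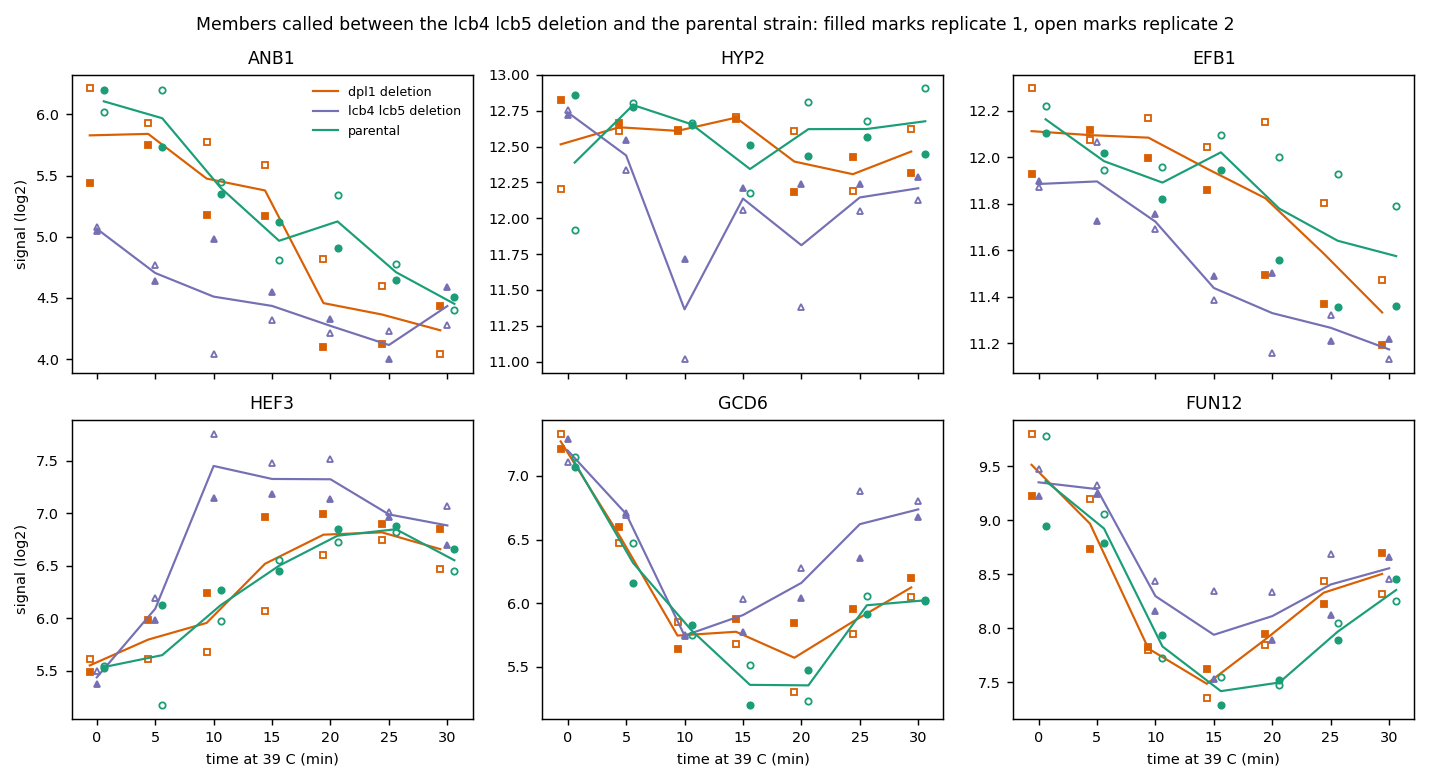
Log2 signal (vertical axis, a range of its own in each panel) against time at 39 C in min (horizontal axis) for 6 members called between the lcb4 lcb5 deletion and the parental strain, with squares for the dpl1 deletion, triangles for the lcb4 lcb5 deletion, circles for the parental strain, filled marks for replicate 1 and open marks for replicate 2. By their means ANB1 lies lowest in the lcb4 lcb5 deletion up to 25 min, HEF3 highest there from 5 min on, and GCD6 highest there from 15 min on.

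The response to heat itself was not called different between strains for any member. In each of the 3 pairs limma called 0 of 36 for the mean of the 6 times (0%, 0.0171% and 0% of all features for dpl1 against parental, lcb4 lcb5 against parental and dpl1 against lcb4 lcb5), with 1, 2 and 3 members at an unadjusted p under 0.05 (114, 177 and 175 of all 5859 features). Jointly over the 6 times it called 0 as well (0%, 0.0171% and 0.0341%), with 0, 5 and 4 members at an unadjusted p under 0.05 (29, 192 and 151 of all 5859 features). The 95% interval of a member's difference in response reached 0.74 to each side of its estimate in the median. The rise of HEF3 was 0.70 larger in the lcb4 lcb5 deletion than in the parental strain (95% interval 0.05 to 1.35, adjusted p = 0.999).

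Other parts of the translation apparatus were also lower during heat. Of 81 features of cytosolic ribosomal proteins 80 fell and 1 rose (35.1% and 30.6% of all features), with a median of -1.58 averaged over strains. At 5 min their median was -0.29 and 6 of 81 had fallen (19.1% of all features), and at 20 min the median was -2.34. Of 20 cytosolic tRNA synthetases, which charge tRNAs, all 20 fell, with a median of -1.36. In the late change 16 ribosomal protein features were called higher and 6 lower (11% and 5.26% of all features), with a median of 0.07. Of the synthetases 3 were called higher and 2 lower, with a median of 0.18, while the median translation factor was at 0.32. Differences between these lists were not tested.

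Of 43 other genes that act in translation, 31 fell and 3 rose (35.1% and 30.6% of all features), with a median of -1.07. DPH2 and DPH1, which begin the diphthamide modification of elongation factor eEF2, had the smallest p among those that fell. DPH1 read 2.62, 3.83 and 5.77 in heated arrays, against 6.66, 6.92 and 7.22 before heat (-3.02 ± 0.21, adjusted p = 2.90e-12), and DPH2 read 5.40, 6.09 and 7.83, against 8.05, 8.39 and 8.89 (-2.13 ± 0.11, adjusted p = 3.84e-15). In both genes no heated array reached the range before heat. DYS1, the synthase that begins the hypusine modification of eIF5A, changed by -1.30 ± 0.09, and TRM112, a partner of the methyltransferase that modifies eRF1, by -1.47 ± 0.11.

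The 3 that rose were DBP1 (1.52 ± 0.25, adjusted p = 7.68e-06), a helicase gene related to DED1, MBF1 (1.19 ± 0.24, adjusted p = 1.13e-04), a bridging factor that works with Gcn4, and DHH1 (0.86 ± 0.29, adjusted p = 0.0130), a helicase that promotes decapping. DBP1 read 4.56, 6.09 and 7.06 in heated arrays, against 3.77, 4.57 and 4.69 before heat. All 3 ranges overlapped between heated arrays and arrays before heat.

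The genes of eEF1A, which delivers tRNAs, and eEF2, which moves the ribosome along, are named here after their values were seen. Each pair lies on 1 shared probe set. The TEF1 and TEF2 probe set read 11.9, 12.3 and 12.6 in heated arrays, against 12.1, 12.2 and 12.5 before heat, and changed by 0.03 ± 0.08 (adjusted p = 0.713). The EFT1 and EFT2 probe set read 9.13, 9.89 and 11.2 in heated arrays, against 10.96, 11.1 and 11.3 before heat, and fell (-1.07 ± 0.10, adjusted p = 2.86e-10). In both the ranges overlapped, and in the late change they passed in neither direction (-0.06, adjusted p = 0.669, for TEF1 and TEF2, and -0.19, adjusted p = 0.17, for EFT1 and EFT2).

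The size of these changes depends on the scale of the arrays. With each array centred on its bacterial hybridisation controls in place of the deposited scale, the median of all features moved to 0.17 in the dpl1 deletion, 0.23 in the lcb4 lcb5 deletion and 0.27 in the parental strain, and the median member to -1.19, -0.86 and -1.07. The median SE then was 0.58, against 0.25 on the deposited scale. In the dpl1, lcb4 lcb5 and parental strains 5, 4 and 5 members were called lower, as were 388, 295 and 357 of all features. In the average 25 members were called lower, as were 825 of all features. The averaged calls lost were those of the TIF1 and TIF2 feature (limma adjusted p = 0.0809), SUI1 (0.247), ANB1 (0.16), GCD7 (0.692) and EFB1 (0.835). The median member lay -1.36, -1.09 and -1.34 from the median of all features on both scales. Centring shifts all features of an array by the same amount, so it could not change these distances.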

How the data were processed

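Total RNA of 42 samples was hybridised to Affymetrix yeast arrays. The authors deposited 1 log2 value per probe set, made with RMA per the submitters' processing notes; its version and the genome build are not given in the sources used here, and the log base was read from the values, which run from 1.36 to 14.7. Of 9335 probe sets, 60 are controls, 6504 carry 1 gene symbol in the platform annotation, 328 several and 2443 none. The highest probe set of each gene by mean over all arrays gave 5656 genes, and 203 probe sets with several symbols were kept as shared features, so that 5859 features were tested with no filter on dim signal. No sequences were used.

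Strain, time and replicate number came from the labels. In limma 3.58.1 (R 4.3.3) a mean was fitted for each of 21 groups, with 1 variance per feature moderated by eBayes. Contrasts were the mean of 6 heat times, single times, steps, the late change and strain differences, two-sided, with Benjamini-Hochberg adjustment over all features. Isoform differences were compared by exact permutation. The fit and the tests were also tested on simulated data. Full values were given for the member of largest response in each role, both genes of each isoform pair, members called higher and up to 6 members called between strains. In the list of other translation genes, the 4 of smallest p and each called higher were named. The members, lists and rules were chosen with earlier results of these data known.

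Same-numbered arrays deviated together. The correlation of their deviations from the group means was above 0.1 in 63 of 63 pairs of groups within a strain (lowest 0.20). Over all groups it was above 0.1 in 209 of 210 pairs (median 0.44). This comes from the data and not from the labels. A pairing of samples within strains and an offset of replicate 2 shared by all strains cannot be told apart here. Alternatives were median centring, hybridisation-control centring, cyclic loess, leaving out the dimmest 25% of features, adjusted p under 0.01, moderation with trend and robust, array weights, the mean of all probe sets, replicate blocks and leaving out each array.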

Additional observations from a re-analysis of the deposited data

How the results depend on the processing

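No member that was called changed direction under any alternative. With hybridisation-control centring, 5 dpl1, 4 lcb4 lcb5 and 5 parental members were lower, as were 388, 295 and 357 of all features. On that scale 0 dpl1 and 0 parental members were higher. At 5 min 0 members were lower and at 30 min 9, and 10 were called between 5 and 10 min and 0 between 10 and 15 min. The late change then held 0 lcb4 lcb5, 0 parental and 2 averaged members, and both strain contrasts with calls held 0. Cyclic loess gave 2 members higher (TIF4632 added) and 30 lower (HCR1 and EFB1 added) in the dpl1 deletion. Cyclic loess and median centring each gave 1 late change in the lcb4 lcb5 deletion. At an adjusted p under 0.01, 1 member was called between 10 and 15 min, 0 late in the lcb4 lcb5 deletion, 0 late in the parental strain, 5 between lcb4 lcb5 and parental and 3 between dpl1 and lcb4 lcb5. Array weights gave 3 between 10 and 15 min and 0 late in the parental strain, and leaving out the dimmest 25% of features gave 2 late in the parental strain. With the replicate block within strains, 9 members were called between 10 and 15 min, 1 between 20 and 25 min and 2, 11 and 10 late in the dpl1, lcb4 lcb5 and parental strains; across strains the counts were 9 between 10 and 15 min and 2, 10 and 9 late. The paired permutation left 10 isoform tests passing, and the block moved no other count by over 1.5 times. Leaving out 1 array gave 24 to 29 members lower in the dpl1 deletion, 22 to 30 in the lcb4 lcb5 deletion and 26 to 27 in parental cells with 1 to 2 higher, 7 to 14 lower at 5 min, 1 to 7 between 10 and 15 min, 0 to 4, 0 to 6 and 0 to 2 late in the dpl1, lcb4 lcb5 and parental strains, 17 to 22 late in the average, 7 to 10 between lcb4 lcb5 and parental, 5 to 7 between dpl1 and lcb4 lcb5, and 4 to 10 isoform tests, since without an array before heat 13 arrangements remain. Without dpl1 replicate 2 before heat, SUI1, SUI3, ANB1 and SUP35 lost their calls in the dpl1 deletion, and without lcb4 lcb5 replicate 2 before heat, SUI1, SUI2, GCD2, YEF3, HYP2, ANB1 and SUP35 lost theirs; without lcb4 lcb5 replicate 1, YEF3, HYP2 and ANB1 did, and without parental replicate 2 before heat SUI2 did in the parental strain. Causes were not tested.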
